A study of Danio rerio with 2 samples.

Results

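The genes described here encode matrix-cutting proteases and their inhibitors, measured in zebrafish (Danio rerio) hearts: the matrix metalloproteinase (MMP) genes mmp2, mmp9, mmp13a, mmp13b, mmp14a, mmp14b and mmp15b, and the genes timp2a, timp2b and timp4.3 for tissue inhibitors of metalloproteinases (TIMPs). They were found by their symbols in the deposited count table, where the 10 symbols stood for 11 of 32057 gene models, since mmp13a was the symbol of 2 models. The set was chosen by symbol with the read counts of both libraries already known, so the values of its genes are given as a description and carry no test. RNA was sequenced from dissected hearts at 96 hours post fertilisation, with 1 library of fish carrying the nju18 allele of foxc1a (the nju18-labelled library) and 1 library of wild-type fish, strain TU (the TU-labelled library). foxc1a encodes a forkhead transcription factor. What the allele does to the gene, whether its carriers were homozygous and how many hearts were pooled is not stated in the labels.

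MMPs are zinc-dependent enzymes that are made as inactive precursors and cut collagens, gelatin, elastin and other matrix proteins outside the cell once a prodomain is removed. TIMPs block them by binding to the active site. In mammals the membrane-anchored enzyme MMP14 also activates the MMP2 precursor, with TIMP2 as a bridge between them, and in developing hearts MMPs take part in the remodelling of cardiac jelly, valves and trabeculae.

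Reads counted to genes numbered 17467109 in the nju18-labelled library and 20049851 in the TU-labelled library, of which 7991 and 15705 came from the MMP and TIMP genes named above. With 1 library per genotype no difference below has a replicate check, no test between genotypes was possible, and every interval covers counting error only. foxc1a itself (ENSDARG00000091481) had 798 reads in the nju18-labelled library and 629 in the TU-labelled library, a ratio of 1.78 on the scaled values. Its level therefore gives no check on which fish carried the allele, and both libraries go by their labels here. The cardiac myosin light chain gene myl7 had 4383 and 2608 CPM (read counts per 1000000 of the scaled library) in the nju18-labelled and TU-labelled libraries, and markers of other tissues were present as well. Eye markers took 0.158% of reads in the nju18-labelled library and 0.547% in the TU-labelled library, and skeletal muscle markers took 1.35% and 0.403%. CPM values are scaled with trimmed-mean (TMM) factors, and log2 ratios are of CPM with 1 added, nju18-labelled minus TU-labelled. A gene is called measured when it reached 5 CPM in at least 1 library.

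Levels were first compared between genes per length, as the FPKM (fragments per length and depth) that the authors deposited. mmp2, the gene for gelatinase A, which mesenchymal cells secrete in mammals, had the highest level of the 11 models in both libraries, 67.5 FPKM in the nju18-labelled and 80.0 in the TU-labelled library. That level lay above 96.4% of genes with a read in the nju18-labelled library and above 96.6% in the TU-labelled library. The next places differed between the libraries. In the nju18-labelled library timp2a (19.5 FPKM), timp2b (19.0) and mmp14a (15.6) followed mmp2, and the counting intervals of timp2a and timp2b overlapped. In the TU-labelled library mmp9 (40.7 FPKM), timp2b (35.9) and the main mmp13a model (32.3) followed, ahead of mmp14a (26.7) and timp2a (24.0), and none of these neighbours overlapped in counting interval. mmp9 stood level with mmp14b in the nju18-labelled library, at 7.03 FPKM each. The lowest place belonged to mmp13b in both libraries, with 0.106 FPKM from 4 reads in the nju18-labelled and 0.0462 FPKM from 2 reads in the TU-labelled library.

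**Figure D1:**
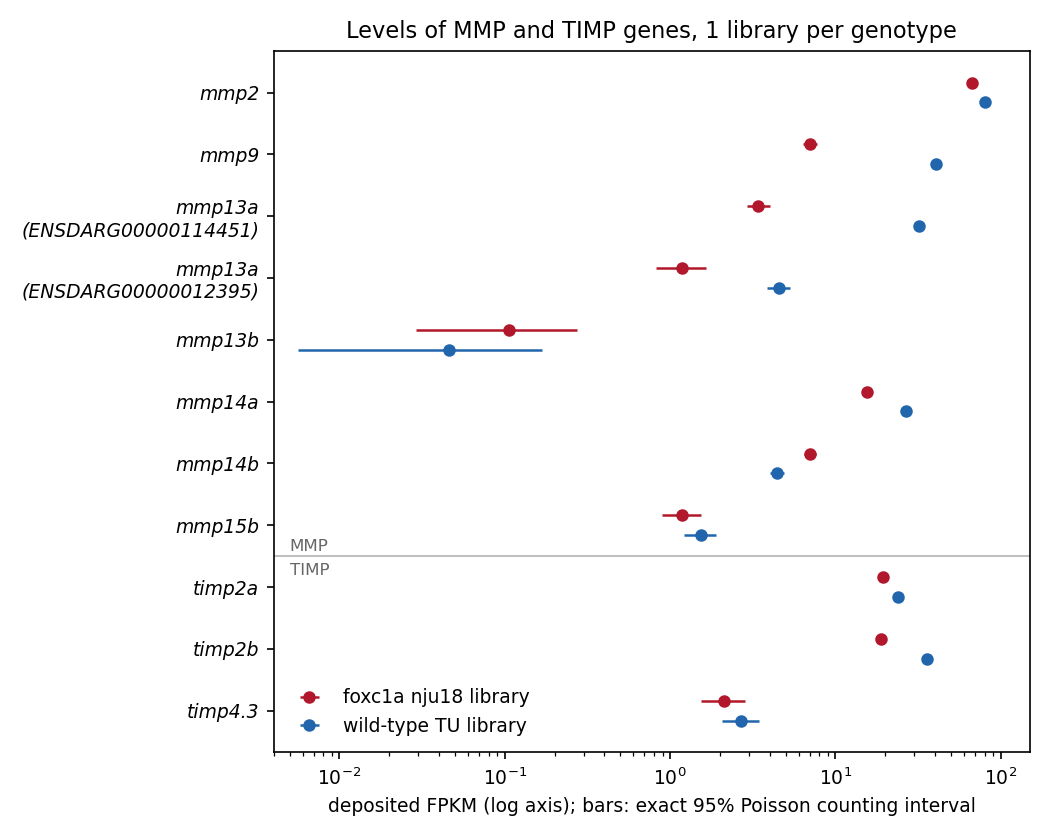
Deposited FPKM (log axis) of each MMP and TIMP gene model in the foxc1a nju18 library (red) and the wild-type TU library (blue), with exact 95% Poisson counting intervals. mmp2 is highest in both libraries, at 67.5 and 80.0 FPKM, while mmp9 and both mmp13a models stand far to the left of their wild-type values in the foxc1a nju18 library.

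mmp9 and mmp13a were the genes of the set that lay furthest apart between the libraries, and both were lower in the nju18-labelled one. mmp9 encodes gelatinase B, which in zebrafish is known from leukocytes and from wounded or regenerating tissue. It had 385 reads in the nju18-labelled library and 2559 in the TU-labelled library, or 24.4 and 115 CPM, and was 4.73 times lower (counting interval 4.25 to 5.28). Its log2 ratio of -2.20 had rank 180 from the most negative among 12259 measured genes. In dissected hearts, fewer cells of a type, less RNA per cell and a different share of other tissue cannot be told apart.

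mmp13a, the collagenase-3 gene, was counted as separate models that share 1 symbol. The model ENSDARG00000114451, with a length of 2556 bases implied by its FPKM, had 153 reads in the nju18-labelled library and 1653 in the TU-labelled library. It stood at 9.69 and 74.5 CPM, 7.69 times lower (counting interval 6.52 to 9.14), with a log2 ratio of -2.82 at rank 65 from the most negative. The model ENSDARG00000012395, with an implied length of 1694 bases, had 35 and 155 reads, or 2.22 and 6.99 CPM. It was 3.15 times lower (counting interval 2.17 to 4.69), and it passed 5 CPM only through the TU-labelled library. Both models were thus lower in the nju18-labelled library. Only the shorter one carried an Entrez identifier in the count table, and how reads that fit both models were divided is not stated in the labels, which leaves the split uncertain. Summed over both models, a choice made after seeing the data, mmp13a had 188 reads in the nju18-labelled library and 1808 in the TU-labelled library, and was 6.85 times lower (counting interval 5.89 to 8.002). Its paralog mmp13b, with 4 and 2 reads, was too shallow to compare.

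mmp2, the first gelatinase gene, did not share this difference. With 3576 reads in the nju18-labelled library and 4867 in the TU-labelled library, it had 226 and 219 CPM and a ratio of 1.03 (counting interval 0.988 to 1.08). The log2 ratio was 0.045, against a median of 0.043 over all 12259 measured genes, and became -0.24 under total-count scaling, so no direction is given for mmp2.

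The membrane-type genes went apart from each other. mmp14a and mmp14b are the zebrafish copies of the gene for membrane-type 1 MMP, the mammalian activator of MMP2. mmp14a had 954 reads in the nju18-labelled library and 1878 in the TU-labelled library (60.4 and 84.7 CPM), 1.40 times lower (counting interval 1.296 to 1.52). mmp14b had 549 and 398 reads (34.8 and 17.9 CPM), 1.94 times higher (counting interval 1.70 to 2.21), and was the member nearest below the 2-fold line with a log2 ratio of 0.92. Their opposite signs held under every scaling tried, with -0.77 for mmp14a and 0.64 for mmp14b under total-count scaling. mmp15b, another membrane-type gene, had 56 reads in the nju18-labelled library and 83 in the TU-labelled library (3.55 and 3.74 CPM), and its counting interval of 0.663 to 1.35 held 1.

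**Figure D2:**
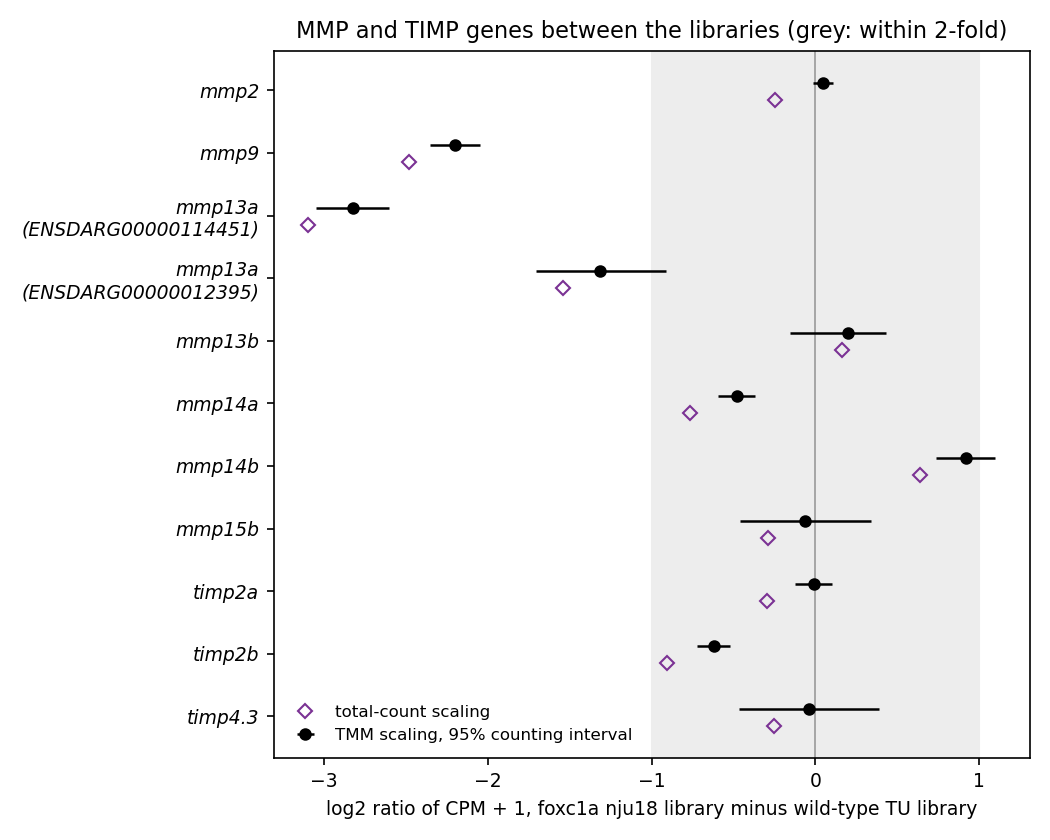
Log2 ratio of CPM + 1 of each gene model, foxc1a nju18 library minus wild-type TU library, with TMM scaling and its 95% counting interval (black) and with total-count scaling (open diamonds); the grey band marks differences within 2-fold. mmp9 (-2.20) and both mmp13a models (-2.82 and -1.31) lie outside the band, and mmp14b (0.92) lies at its right edge.

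Of the inhibitor genes, timp2b was lower and the others lay close to equal on the TMM-scaled values. timp2a and timp2b are the zebrafish copies of the gene for TIMP2. timp2b had 1170 reads in the nju18-labelled library and 2539 in the TU-labelled library (74.1 and 114 CPM), 1.55 times lower (counting interval 1.44 to 1.66). timp2a had 1065 and 1507 reads (67.4 and 68.0 CPM), with a ratio of 0.992 (counting interval 0.917 to 1.07). The log2 ratio of timp2a was -0.011 and became -0.30 under total-count scaling, so no direction is given for timp2a. timp4.3, a member of the timp4 tandem cluster, had 44 reads in the nju18-labelled library and 64 in the TU-labelled library (2.79 and 2.89 CPM), and its interval of 0.642 to 1.44 held 1. In the RefSeq annotation of another assembly (GRCz12tu) timp4.3 lies inside the span of syn2b, a synaptic vesicle gene. syn2b had 20 reads in the nju18-labelled library and 159 in the TU-labelled library. Whether exons of these genes overlap was not checked and no strand setting is stated, so how reads were divided between them is not known.

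Taking the 11 models together, 3 (from 2 genes, mmp9 and mmp13a) were at least 2-fold lower in the nju18-labelled library and 0 were at least 2-fold higher. The counts are the same over the 8 models, from 7 genes, that reached 5 CPM in either library. Over all genes at that level, 11.1% were at least 2-fold lower and 9.61% at least 2-fold higher, and over all 25254 genes with a read 8.35% were at least 2-fold lower. The median log2 ratio was -0.061 over all 11 models, against -0.051 over all genes with a read. It was -0.55 over the 8 models, against 0.043 over all measured genes, but 1 of the 8 had entered through its higher value in the TU-labelled library.

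In the authors' deposited table the same 3 models were called lower and 0 called higher at a false discovery rate (FDR) under 0.05. That table called 7.63% of its genes lower and 4.24% higher. Its values were a log2 fold change of -2.98 (FDR 2.66e-07) for mmp13a ENSDARG00000114451, -2.28 (FDR 0.000244) for mmp9 and -1.69 (FDR 0.0398) for mmp13a ENSDARG00000012395. In the authors' deposited table mmp14b stood at 0.92 (FDR 0.691), timp2b at -0.66 (FDR 0.921) and mmp2 at 0.01 (FDR 0.983). How an FDR was obtained from 1 library per genotype is not given in the sources used here.

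Division of reads within pairs does not depend on how the libraries are scaled. mmp14b took 36.5% of the reads of mmp14a and mmp14b in the nju18-labelled library (exact 95% binomial interval 34.1% to 39.0%) and 17.5% in the TU-labelled library (15.9% to 19.1%). Per length, mmp14a exceeded mmp14b by 2.22 times in the nju18-labelled library and by 6.01 times in the TU-labelled library. timp2a took 47.7% of the reads of timp2a and timp2b in the nju18-labelled library (45.6% to 49.7%) and 37.2% in the TU-labelled library (35.8% to 38.8%). Within the gelatinases, mmp9 took 9.72% of reads in the nju18-labelled library (8.81% to 10.7%) and 34.5% in the TU-labelled library (33.4% to 35.6%). In all 3 pairs the intervals of the libraries were apart. For mmp13a, the model ENSDARG00000114451 took 81.4% of reads in the nju18-labelled library (75.1% to 86.7%) and 91.4% in the TU-labelled library (90.0% to 92.7%).

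**Figure D3:**
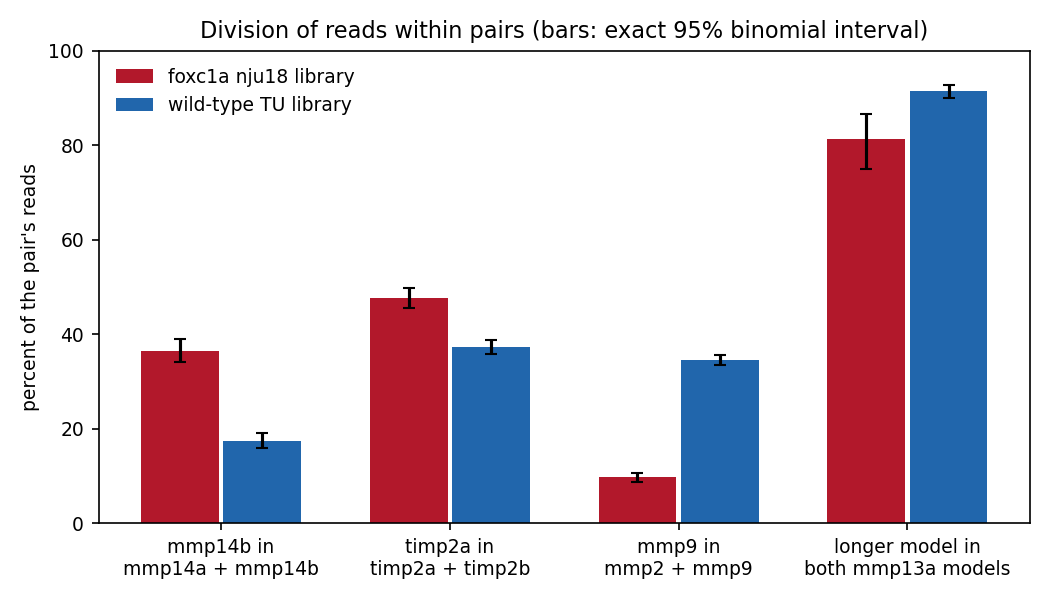
Percent of a pair's reads that fell on the first-named gene in the foxc1a nju18 library (red) and the wild-type TU library (blue), with exact 95% binomial intervals. mmp14b takes 36.5% against 17.5%, timp2a 47.7% against 37.2%, mmp9 9.72% against 34.5%, and the longer mmp13a model (ENSDARG00000114451) 81.4% against 91.4%.

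Protease and inhibitor transcripts were also set against each other within each library. The summed FPKM of the MMP models was 103 in the nju18-labelled library and 190 in the TU-labelled library, and the sum of the TIMP genes was 40.6 and 62.6. Their ratio was 2.54 in the nju18-labelled library (counting bounds 2.23 to 2.89) and 3.04 in the TU-labelled library (2.76 to 3.35), bounds that overlapped. In each sum the gene with the highest FPKM added over both libraries was then left out, mmp2 and timp2b. The ratio was then 1.64 in the nju18-labelled library (1.36 to 1.98) and 4.13 in the TU-labelled library (3.64 to 4.67), and those bounds were apart. mmp9 and mmp13a together made up 11.3% of the summed MMP level in the nju18-labelled library and 40.8% in the TU-labelled library, while mmp2 made up 65.5% and 42.1%. Leaving out mmp9 and mmp13a, as chosen after seeing the data, turned the order round, to 2.25 in the nju18-labelled library (1.9997 to 2.53) and 1.80 in the TU-labelled library (1.64 to 1.97).

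The genes whose mammalian products form the MMP2-activating complex were compared in the same way. timp2a and timp2b together stood at 1.70 times the level of mmp14a and mmp14b in the nju18-labelled library (counting bounds 1.496 to 1.94) and at 1.92 times in the TU-labelled library (1.75 to 2.12). mmp2 stood at 2.99 times the summed mmp14 level in the nju18-labelled library (2.70 to 3.31) and at 2.57 times in the TU-labelled library (2.37 to 2.79). Against the summed timp2 level, mmp2 stood at 1.75 in the nju18-labelled library (1.60 to 1.92) and at 1.34 in the TU-labelled library (1.24 to 1.44). The bounds of the last ratio were apart between the libraries, and those of the first 2 overlapped.

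The count table held 19 further MMP and TIMP genes, of which 5 reached 5 CPM, with 2 at least 2-fold lower and 0 higher. The counts of this and the following lists stand beside 11.1% of all measured genes at least 2-fold lower and 9.61% higher. mmp30, which in the RefSeq annotation is separated from mmp13a by 1 gene, had 732 reads in the nju18-labelled library and 2981 in the TU-labelled library (46.4 and 134 CPM). It was 2.90 times lower. mmp17b, for a membrane-anchored MMP, had 2.28 and 5.68 CPM (log2 ratio -1.03), and it passed 5 CPM only through the TU-labelled library. mmp28, for epilysin, had 5.64 and 9.42 CPM, mmp23ba 44.8 and 36.9 CPM, and mmp15a, the paralog of mmp15b, 12.4 and 9.88 CPM, all within 2-fold. mmp24, under the 5 CPM line and named after its values were seen, had 0 reads in the nju18-labelled library and 69 in the TU-labelled library. With a floor of 3 reads put in place of 0 in the nju18-labelled library, it was 16.4-fold lower. That value leaves out the counting error of the 69 reads.

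Among genes that activate or restrain MMPs, most lay within 2-fold. This list had 19 measured genes and a median log2 ratio of -0.13, and 1 gene on each side passed the 2-fold line. The higher one was serpinf2b, for a plasmin inhibitor, at 11.9 CPM in the nju18-labelled library and 3.61 in the TU-labelled library. serpinf2b passed 5 CPM only through the nju18-labelled library. The lower one was spock2, for a matrix proteoglycan of the testican family, at 5.51 and 16.1 CPM. pcsk7, for a proprotein convertase, had 7.47 CPM in the nju18-labelled library and 15.2 in the TU-labelled library (log2 ratio -0.94). reck, for a membrane-anchored MMP inhibitor, had 52.6 and 57.7 CPM. The related ADAM and ADAMTS genes, a list that includes ADAMTS-like genes, had a median of -0.12 over 22 measured genes. Past the 2-fold line were 0 upward and 1 downward, the ADAMTS-like gene adamtsl2 (2.60 and 7.40 CPM). It passed 5 CPM only through the TU-labelled library. Next to it stood adam8a, a leukocyte sheddase gene in mammals, with 5.70 CPM in the nju18-labelled library and 12.3 in the TU-labelled library (-0.99). Its more abundant paralog adam8b lay the other way within 2-fold, with 78.0 and 58.9 CPM (0.40). With no filter, 3 ADAM and ADAMTS genes were at least 2-fold lower in the nju18-labelled library and 1 was at least 2-fold higher.

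Cytokine and transcription factor genes known to act upstream of MMPs had a median log2 ratio of -0.25 over 26 measured genes. Past the 2-fold line were 5 genes downward and 0 upward, but 3 of the 5 (il11b, fosaa and tnfb) had passed 5 CPM only through their higher value in the TU-labelled library, and with a 20 CPM filter 2 genes were lower. il11b, an interleukin 11 gene, had 20 reads in the nju18-labelled library and 266 in the TU-labelled library, 9.47 times lower. Its more abundant paralog il11a lay within 2-fold, with 36.2 CPM in the nju18-labelled library and 40.9 in the TU-labelled library. fosaa, for a Fos subunit of AP-1, had 2.34 and 10.9 CPM, tnfb, a tumour necrosis factor gene, 2.85 and 10.01 CPM, and stat3 25.7 and 57.3 CPM. The other measured AP-1 genes lay on both sides within 2-fold. jun had 1123 CPM in the nju18-labelled library and 691 in the TU-labelled library and fosab 1470 and 997 CPM, while jund had 298 and 474 CPM, fosb 346 and 486 CPM and junbb 1611 and 1524 CPM. Matrix genes that MMPs can cut had 1 of 32 at least 2-fold higher and 5 lower (median -0.11). Over all measured genes the shares were 9.61% higher and 11.1% lower. vcana, a versican gene, was the higher one with 82.6 and 7.62 CPM, while its paralog vcanb had 25.8 and 87.0 CPM. The collagen gene col5a2b had 7.47 and 22.3 CPM and the elastin gene elnb 199 and 470 CPM. The more abundant collagen genes col1a1b (1827 and 1517 CPM) and col1a2 (1668 and 1752 CPM) lay within 2-fold.

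**Figure D4:**
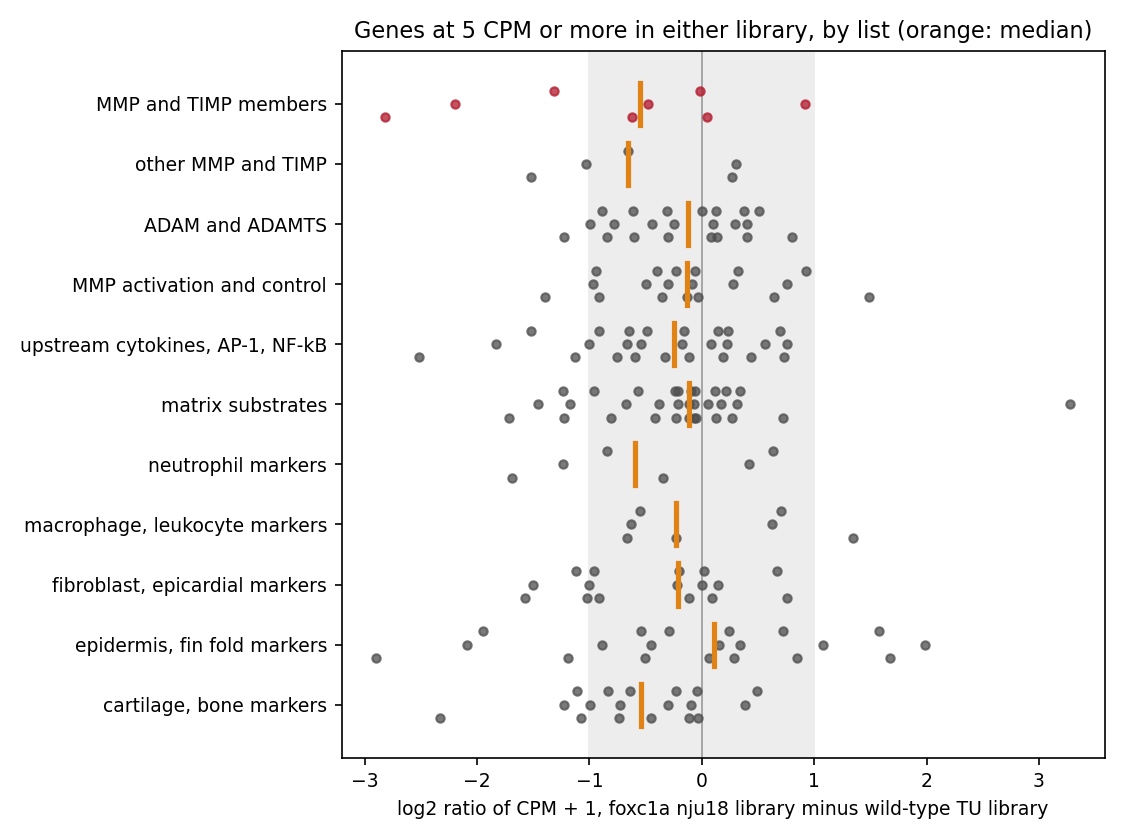
Log2 ratio of CPM + 1, foxc1a nju18 library minus wild-type TU library, for measured genes, 1 point a gene model, with the median of each list in orange and differences within 2-fold in grey. The MMP and TIMP members (red) spread from -2.82 to 0.92, and the fin fold genes and2, and3 and and1 reach -2.90 to -1.95 at the left of the epidermis row.

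Markers of cells that can carry mmp9 and mmp13a were read beside them, and their part in the result was not tested. Of 12 neutrophil markers 6 were measured. Of these 2 were at least 2-fold lower and 0 higher, and their median log2 ratio was -0.60. The summed level of the list was 77.7 CPM in the nju18-labelled library and 86.3 in the TU-labelled library. Of these sums srgn alone made up 37.3 and 23.7 CPM. mpx, the neutrophil myeloperoxidase gene, had 113 and 402 reads (7.16 and 18.1 CPM) and lect2l, which passed 5 CPM only through the TU-labelled library, 1.84 and 8.12 CPM. The more abundant srgn and npsn lay the other way within 2-fold, with 37.3 CPM in the nju18-labelled library and 23.7 in the TU-labelled library for srgn and 12.9 and 9.33 CPM for npsn. With 5 CPM added, or with a 20 CPM filter, 0 of the neutrophil markers were 2-fold lower. lyz had 0 reads in both libraries, and cxcr1 had 0 reads in the nju18-labelled and 9 in the TU-labelled library. Of 19 macrophage and leukocyte markers 7 were measured, with 1 at least 2-fold higher (lgals9l1, 8.55 and 2.75 CPM) and 0 lower. The median log2 ratio of its measured genes was -0.23. The summed level of that list was 75.4 CPM in the nju18-labelled library and 80.9 in the TU-labelled library, and its genes lay on both sides. mpeg1.2, a macrophage gene, had 10.5 CPM in the nju18-labelled library and 17.3 in the TU-labelled library. By contrast marco, a macrophage scavenger receptor gene, had 6.59 and 3.65 CPM and ptprc, a leukocyte gene, 5.89 and 3.47 CPM. lgals9l1, marco and ptprc passed 5 CPM only through the nju18-labelled library. With 5 CPM added, or with a 20 CPM filter, 0 genes of that list were 2-fold higher.

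Fin fold and connective tissue genes were read beside mmp9 and mmp13a as well. The actinodin genes of the fin fold had the largest negative log2 ratios of the epidermis and fin fold list: and2 had 183 CPM in the nju18-labelled library and 1366 in the TU-labelled library (log2 ratio -2.90), and3 52.4 and 227 CPM (-2.09) and and1 127 and 495 CPM (-1.95). The cytokeratin genes of the same list were divided. Those named cyt1l, cyt1 and krt91 lay the other way. cyt1l had 3441 CPM in the nju18-labelled library and 870 in the TU-labelled library (log2 ratio 1.98). For cyt1 the values were 4931 and 1542 CPM (1.68) and for krt91 5433 and 1818 CPM (1.58). Within 2-fold lay krt18a.1 (0.28), krt17 (0.15), krt8 (0.067) and krt4, which was lower with 1311 and 1794 CPM (-0.45). That list as a whole had 4 of 20 genes at least 2-fold higher and 4 lower, and its summed level was 20128 CPM in the nju18-labelled library and 12505 in the TU-labelled library. Fibroblast and epicardial markers had 5 of 16 genes at least 2-fold lower and 0 higher. Their median log2 ratio was -0.21, and their summed level was 413 and 509 CPM. With 5 CPM added, or with a 20 CPM filter, 2 were lower. tbx18 and tcf21, transcription factor genes of the epicardium, had 3.93 and 13.6 CPM and 3.04 and 10.4 CPM, and both passed 5 CPM only through the TU-labelled library. aldh1a2, a retinoic acid synthesis gene of the epicardium, lay the other way with 17.5 CPM in the nju18-labelled library and 10.6 in the TU-labelled library. pdgfrb was among the genes at least 2-fold lower and stood above 5 CPM in both libraries. It had 31.2 CPM in the nju18-labelled library and 68.9 in the TU-labelled library (log2 ratio -1.12). By contrast pdgfra, a receptor gene of fibroblast-like cells, had a ratio of 0.999 (counting interval 0.931 to 1.07). Cartilage and bone markers had 4 of 18 lower (2 with 5 CPM added) and 0 higher, led by col10a1a with 158 and 798 CPM. The summed level of that list was 2808 CPM in the nju18-labelled library and 3934 in the TU-labelled library. The median log2 ratio of the measured cartilage and bone markers was -0.54. Within 2-fold, matn4 (495 and 351 CPM) and sox9b (42.2 and 32.1 CPM) were the only measured ones to lie the other way. col2a1a had 298 and 318 CPM, and matn1 365 and 728 CPM (log2 ratio -0.99). The part of these cells in the result was not tested.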

How the data were processed

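RNA from dissected hearts was sequenced as 1 library per genotype, and groups were taken from the genotype labels. The tools bcl2fastq, Trimmomatic, HISAT2 and featureCounts and the genome build GRCz11 appear in the submitters' processing notes without versions or roles. The authors gave whole-number counts for each Ensembl gene model. Their deposited FPKM came from these counts, the library total and 1 length per gene (lengths equal between libraries within 0.01 for 100% of 21662 genes with reads in both). The authors' comparison table, named for EBSeq per the file name, holds a normalised signal (deposited count over a size factor of 0.854 and 1.17 for the nju18-labelled and TU-labelled library), a fold change ratio of these, its log2, and an FDR (a q-value), and the authors' calls were those under 0.05 for every gene, as checked.

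Counts were scaled by library total times TMM factors of 0.904 (nju18-labelled) and 1.11 (TU-labelled) from edgeR 4.0.16 in R 4.3.3, with 1 CPM added for log2 ratios, which understates differences of low genes. A rule of 2-fold among genes at 5 CPM or more stood in for a test. Ratios have nothing added, and their exact 95% Clopper-Pearson intervals come from the conditional binomial of the reads (scipy 1.17.1). Levels per length have exact Poisson intervals. Bounds of ratios of summed FPKM set the lower bounds of all genes in one sum against the upper bounds of the other, so they are wide. Reads are not independent molecules, so intervals cover counting error only. Scripts were tested on simulated data.

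The genes and lists were chosen with earlier results of these data known. Named were all members, every other MMP or TIMP gene at 5 CPM or more, up to 4 measured genes of each list by the size of their log2 ratio, and, added after their values were seen, genes of known role (such as reck, jun, mpx and pdgfra). No gene was named for a like pattern, since 2 libraries give each gene 1 ratio. The cardiomyocyte, endothelial, neuron, digestive and red cell lists had 10 of 16, 1 of 17, 1 of 18, 7 of 18 and 0 of 13 measured genes at least 2-fold higher and 0, 0, 12, 5 and 8 lower. Eye markers had 0 of 23 higher and 20 lower, and skeletal muscle markers 14 of 20 higher and 0 lower. Alternatives were scaling by total count or by DESeq2 1.42.0 size factors, a total without the 7 genes over 1% of a library, 0.25 or 5 CPM added, FPKM with 1 added, other filters (none, 20 CPM), 1.5-fold and 4-fold rules and an FDR of 0.01. Sequences of the genes were not used here. A gene of the activation and control list that the naming rule covers is not reported here.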

Additional observations from a re-analysis of the deposited data

How the results depend on the processing

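mmp9 and the mmp13a model ENSDARG00000114451 were at least 2-fold lower under every scaling, added value and filter tried and under the 4-fold rule. The model ENSDARG00000012395 left the count with 5 CPM added (log2 ratio -0.73), with the 20 CPM filter and under the 4-fold rule. Under the 1.5-fold rule 1 model, mmp14b, was higher and 4 lower. Total-count scaling shifted the median of all measured genes by -0.28, and mmp2 was the 1 member that changed sign, to -0.24 there, -0.22 with the total without genes over 1% and -0.24 with FPKM. The median log2 ratio of the measured members was -0.84, -0.82 and -0.81 under those settings and -0.061 with no filter. At an FDR under 0.01 the authors' calls among the members numbered 2 in place of 3. The MMP to TIMP ratio was 3.998 in the nju18-labelled and 4.68 in the TU-labelled library over every MMP and TIMP gene, 1.64 and 4.13 without mmp2 and timp2b, and 2.25 and 1.80 without mmp9 and mmp13a, the last chosen after seeing the data. Of 340 list counts 263 stayed within 1.5 times. With total-count scaling 5 ADAM and ADAMTS genes (against 1), 4 activation and control genes (against 1) and 7 cartilage and bone markers (against 4) were lower, and 0 neuron markers (against 1) were higher. With 5 CPM added, or with the 20 CPM filter, 1 other MMP gene (against 2) and 0 ADAM and ADAMTS genes (against 1) were lower, and 0 activation and control genes (against 1) were higher; 3 upstream genes (against 5) were lower with 5 CPM added. With the 20 CPM filter 0 activation and control genes were lower. The cause was not tested. No paired analysis was possible because each genotype had 1 library. Depth limits mmp13b, mmp15b and timp4.3.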

Other observations

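Lysyl oxidases crosslink the collagen and elastin that MMPs cut, and they were looked up by symbol after the data had been seen. Of 9 genes 6 were measured. All 6 had negative log2 ratios, and 2 were at least 2-fold lower in the nju18-labelled library. Over all measured genes 11.1% were at least 2-fold lower, and the median log2 ratio was 0.043. The lysyl oxidase list was not counted under the alternative settings. loxl2a had 172 reads in the nju18-labelled library and 1554 in the TU-labelled library (10.9 and 70.1 CPM), a log2 ratio of -2.58. loxl4 had 14.4 and 32.5 CPM, loxa 39.0 and 78.5 CPM and loxl2b 50.5 and 93.9 CPM, while loxl3b, with the ratio nearest to equal, had 28.4 and 39.8 CPM. Cathepsins, a family of mostly lysosomal proteases, had 0 of 15 measured genes 2-fold apart in either direction (median log2 ratio -0.11), and 0 of 3 cystatin genes, which encode cathepsin inhibitors, were 2-fold apart.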
